A study of Solanum tuberosum with 12 samples.

Results

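Leaves of potato (Solanum tuberosum) cultivar Desiree were compared after 3 weeks of growth at high temperature (HT) and after 3 weeks at normal temperature (NT). HT meant 35 °C by day and 29 °C by night, and NT meant 22 °C by day and 16 °C by night, with 12 h of light in each. All plants were first multiplied as plantlets in culture on MS agar and then moved to soil. Poly(A) RNA from the upper 5 leaves was sequenced from 3 HT libraries and 3 NT libraries, which were chosen by their titles and are 6 of the 12 libraries of the series. The other 6 came from leaves of 8 weeks at the same temperatures and appear here only in the comparison of ages. The labels do not say whether replicates were separate plants, so p-values measure the spread between these libraries, which may be technical.

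The deposited counts cover only transcripts in the authors' list of changes at this age. The list held 1447 of the 33777 they tested (4.28%), 901 of them higher at HT (2.67% of tests) and 546 lower (1.62%). Its members had passed the authors' limits on the same 6 libraries, a log2 change of 1.5 or more in either direction and p under 0.01. Calls within it are therefore no independent evidence that a transcript changed. Levels are given as CPM, counts per 1000000 of a library's scaled total, and are not divided by transcript length unless that is said. Changes are log2 ratios of HT to NT with their standard errors, from edgeR's quasi-likelihood F test with Benjamini-Hochberg adjustment over the listed transcripts and a threshold of 0.05.

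Heat makes proteins unfold, and heat stress transcription factors answer by switching on chaperone genes. Small heat shock proteins hold unfolding proteins in a soluble state, and Hsp70 and Hsp90 chaperones with their DnaJ and BAG partners refold them or pass them on. In leaves the photosynthetic apparatus is among the parts most sensitive to heat, and rubisco activase, which keeps the carbon-fixing enzyme rubisco active, is known as a heat-labile protein.

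Recovered library totals were 57436806 to 64700839 counts at HT and 57089256 to 58922414 at NT, of which the listed transcripts took 1.76% to 1.89% at HT and 2.08% to 2.61% at NT. The authors' log2 changes lay a constant 0.40 below those of counts over these totals (1.32-fold), and this shift was kept in the scaling. Scaling choices move all changes together. Relative to the scaling used, the median log2 change moved by 0.40 with the totals alone, by -0.51 with TMM factors and by -1.21 with DESeq2 size factors, which like the TMM factors were estimated on the listed transcripts. Both kinds of factor take most transcripts as unchanged, but the listed ones were chosen as changed, more of them higher than lower. The downward shift tends to take calls from rises and to leave or add falls. Counts of calls under these factors are therefore no test of direction. NT replicate 1 stood apart from the other NT libraries. It lay over 4-fold below both for 80 listed transcripts, against 6 to 23 for each of the other libraries within its group, and 75 of the 80 were listed as lower at HT. It also lay over 4-fold above both for 21, against 6 to 12 for each of the other libraries, and 14 of the 21 were listed as higher. Leaf antenna transcripts were present in every library, with sums of 2028, 2236 and 1968 CPM at HT and 6484, 6856 and 7369.5 CPM at NT over the 8 listed antenna and photosystem transcripts.

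At HT more listed transcripts were higher than lower, and the lower ones had higher levels per kilobase. Of 1280 transcripts with enough counts to test, 772 were called higher (60.3% of those tested), 476 were called lower (37.2%) and 32 were not called. These shares are the background for the counts by gene list below. In all 97.5% of tested transcripts were called, in a list that had been chosen on these libraries, and 167 transcripts did not pass the filter on low counts and are called not tested below. Higher calls were 61.9% of all calls, whereas with DESeq2 size factors they were 23.4%, with 155 higher and 507 lower. The median log2 change was 2.01 among higher calls and -1.93 among lower calls, and 51.2% of the higher and 46.8% of the lower calls exceeded 4-fold. The HT and NT libraries did not overlap for 1300 of the 1447 listed transcripts (89.8%), and overlap was found in 15 of the higher and 72 of the lower calls. The median level over the 6 libraries was 0.56 CPM per kilobase among transcripts listed higher and 1.85 CPM per kilobase among those listed lower. A level of 10 CPM per kilobase or more was reached by 63 of the 901 listed higher (6.99%) and by 142 of the 546 listed lower (26%). At the edge of the list, 79 transcripts lay within 0.05 of the log2 threshold in the authors' deposited table, 42 of them higher, and the smallest changes were 1.5 and -1.5. Transcripts outside the list were not analysed here.

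**Figure D1:**
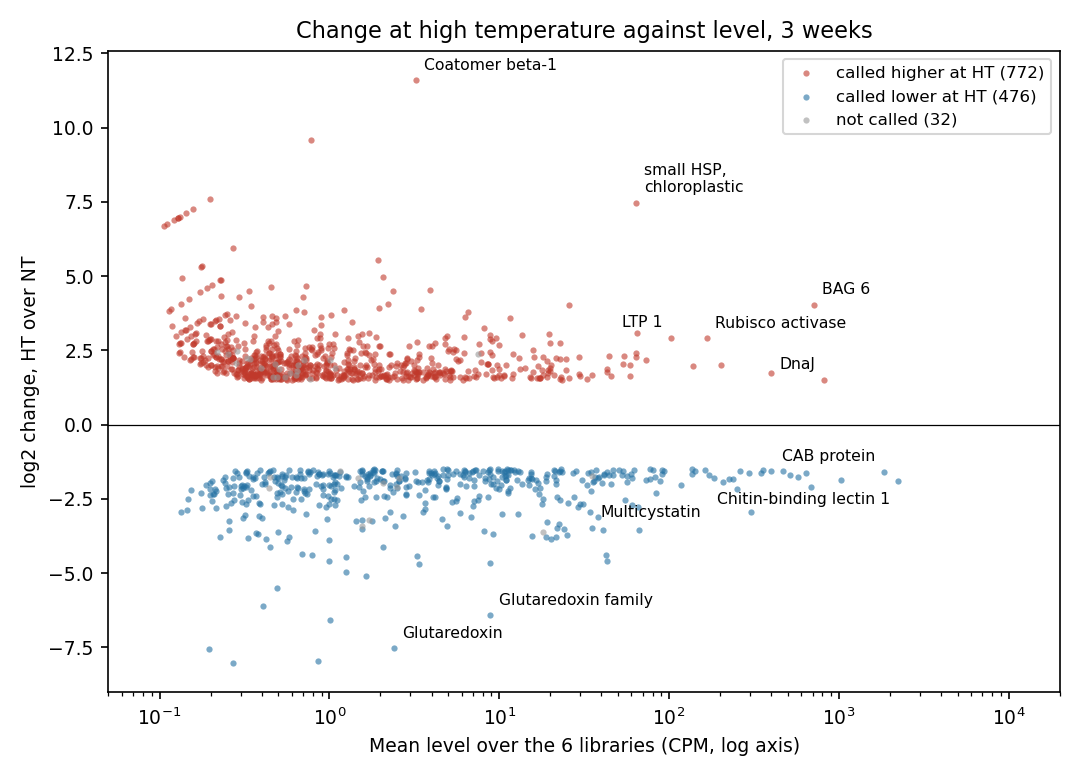
The vertical axis gives the log2 change of HT over NT and the horizontal axis the mean level over the 6 libraries in CPM, on a log scale, with 1 point for each of the 1280 tested transcripts. The empty band around 0 is the authors' threshold of 1.5, and the right-hand side of the plot, at high levels, holds more of the 476 lower calls than of the 772 higher calls.

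Most listed chaperones of the heat response rose at HT. Of 12 small heat shock proteins 11 rose and 1 fell, against 7 higher and 1 lower under DESeq2 size factors. Their summed level was 256, 358 and 243 CPM in the HT libraries, against 31.8, 33.5 and 31.6 CPM in the NT libraries. All 4 tested members of the list of large heat shock proteins and chaperonins rose as well (3 with DESeq2 size factors), and the fifth did not pass the filter on low counts in 3 libraries. In these bulk samples a change in the share of a cell type and a change in RNA per cell cannot be told apart, here and for every result that follows.

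The chaperone-related transcript with the most counts at HT was BCL-2-associated athanogene 6 (PGSC0003DMG400000079), a BAG-domain partner of Hsp70. It had 1279, 1676 and 1066 CPM in the HT libraries, against 70.1, 76.6 and 98.4 CPM in the NT libraries, and the log2 change was 4.04 ± 0.24 (edgeR, adjusted p = 0.000141). The chloroplastic small heat shock protein (PGSC0003DMG400003219), known in other plants to protect photosystem II, had 112, 175 and 94.8 CPM at HT and 0.785, 0.683 and 0.679 CPM at NT. The lowest HT library lay far above the highest NT library for this transcript. A run of 3 neighbouring identifiers carries the name chloroplast small heat shock protein class I, and these were chosen after their values were seen. Of these, PGSC0003DMG400011632 had 23.5, 29.7 and 19.9 CPM at HT and 2.64, 2.98 and 3.43 CPM at NT. The changes were 3.01 ± 0.29 for it, 2.98 ± 0.32 for PGSC0003DMG400011631 and 2.38 ± 0.43 for PGSC0003DMG400011630, with edgeR adjusted p-values of 0.000459, 0.00052 and 0.00231. Similar genes such as these may share reads, so their separate values are uncertain. A class II small heat shock protein, Le-HSP17.6 (PGSC0003DMG400008187), moved less, with 44.4, 48.4 and 43.4 CPM at HT against 15.2, 14.4 and 13.9 CPM at NT and a log2 change of 1.65 ± 0.22 (edgeR, adjusted p = 0.00116).

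Among the larger chaperones, the heat shock cognate 70 kDa protein (PGSC0003DMG400000444) had 93.7, 106 and 83.2 CPM at HT and 16.4, 25.4 and 28 CPM at NT. An Hsp90-type chaperone, heat shock protein 83 (PGSC0003DMG400009509), had 21.4, 27.2 and 16.7 CPM at HT and 2.86, 6.14 and 4.67 CPM at NT, a log2 change of 2.25 ± 0.37 (edgeR, adjusted p = 0.00172). A second transcript of the same name (PGSC0003DMG401028907) had 0.861, 2.18 and 1.67 CPM at HT, while its NT counts were all 0. With 3 counts over the NT libraries as the floor, it was at least 79.0-fold higher at HT. Both HSP83 transcripts were thus above all NT values in all HT libraries.

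Heat stress transcription factors, which bind the promoters of chaperone genes, went both ways, with 2 of 3 listed members higher and 1 lower. HSF30 (PGSC0003DMG400006447) had 1.88, 1.87 and 2.06 CPM at HT and 0.201, 0.215 and 0.280 CPM at NT, a change of 3.05 ± 0.34 (edgeR, adjusted p = 0.000628). Its HT libraries lay close together. Another heat shock factor protein (PGSC0003DMG400017334) had 3.07, 5.43 and 8.24 CPM at HT and 1.43, 2.81 and 1.36 CPM at NT. Its change of 1.58 ± 0.47 (edgeR, adjusted p = 0.0129) was 1.19 and no longer called without HT replicate 3 (adjusted p = 0.0546). HSFA9 (PGSC0003DMG400032793), known from seed development in other plants, had 0.188, 0.330 and 0.454 CPM at HT and 0.403, 3.73 and 1.52 CPM at NT. The groups overlapped, and its change of -2.53 ± 0.77 (edgeR, adjusted p = 0.0145) lost its call without HT replicate 1 (-2.26, adjusted p = 0.0528) and without NT replicate 2 (-1.56, adjusted p = 0.0544).

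DnaJ proteins, the co-chaperones that hand unfolded proteins to Hsp70, did not move as a block. Of 9 listed members 3 rose and 6 fell, against 0 higher and 6 lower with DESeq2 size factors. The member with the most counts (PGSC0003DMG400023400) had 1274, 1258 and 1098 CPM at HT and 415, 400.2 and 456 CPM at NT, a log2 change of 1.51 ± 0.14 (edgeR, adjusted p = 0.000407). In 5 of the 6 members that fell, NT replicate 1 lay inside or below the range of the HT libraries. One of these, DNAJ PGSC0003DMG400009869, had 21.0, 36.9 and 25.8 CPM at HT and 26.4, 184 and 207 CPM at NT, with a change of -2.32 ± 0.68 (edgeR, adjusted p = 0.0124) and -2.81 without NT replicate 1. For DnaJ PGSC0003DMG400003565 the values were 32.5, 32.9 and 29.5 CPM at HT and 25.8, 138 and 178 CPM at NT. Its change of -1.85 ± 0.60 (edgeR, adjusted p = 0.0185) lost the call when any 1 HT library was left out (-1.88 to -1.80) and without NT replicate 3 (-1.38, adjusted p = 0.0654). In both, NT replicates 2 and 3 were high and NT replicate 1 was at or just below the HT level.

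**Figure D2:**
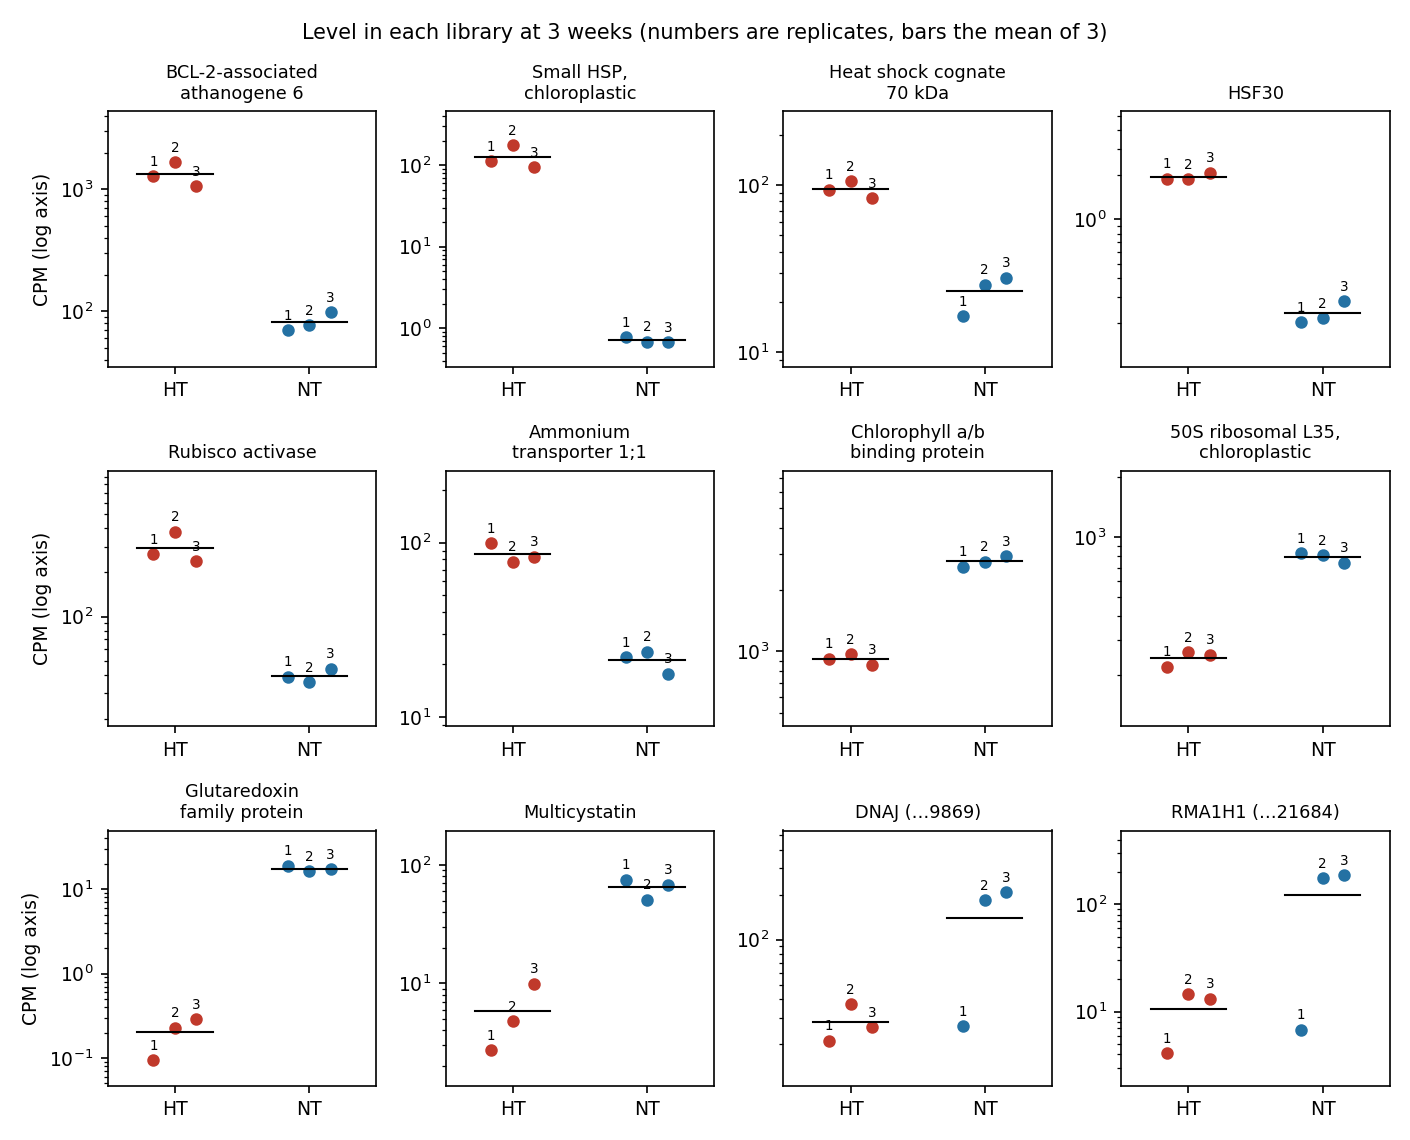
Each panel gives the CPM of 1 transcript in the 3 HT libraries (left, red) and the 3 NT libraries (right, blue) on a log axis, with replicate numbers beside the points and bars at the group means. The groups are apart in the first 10 panels, and in the panels of DNAJ and RMA1H1 NT replicate 1, at 26.4 and 6.82 CPM, lies among the HT libraries.

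Most listed glutaredoxins were close to 0 at HT. They are small enzymes that reduce disulfide bonds with glutathione, and plant members of one class act with transcription factors in nitrate and stress responses. Of 18 listed members 16 fell, 1 rose and 1 had too few counts to test, and DESeq2 size factors gave the same counts. With the totals alone, which shift changes upward, 15 were lower and 1 was higher. For the 13 that fell with over 3 counts at HT the changes ran from -2.12 to -7.53. That limit is on the sum of the HT libraries, so the larger sizes still rest on few counts. Of the 18 listed members 13 belong to 2 runs of neighbouring identifiers. In the first run, from PGSC0003DMG400010762 to PGSC0003DMG400010770, all 8 listed members fell, by log2 changes from -2.75 to -7.53 in the 6 with over 3 counts at HT. No HT library exceeded 0.431 CPM for any of them, and the NT libraries lay between 0.181 and 6.49 CPM. In the second run, from PGSC0003DMG400016030 to PGSC0003DMG400016034, 4 of 5 listed members fell and 1 was not tested, with at most 0.0909 CPM in an HT library and 0.0604 to 3.06 CPM in the NT libraries. Members with similar sequence may share reads, so the counts within a run are uncertain.

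The glutaredoxin family protein PGSC0003DMG400030784 had 0.0941, 0.230 and 0.288 CPM at HT, against 19.0, 16.3 and 17.2 CPM at NT. It fell by 6.42 ± 0.47 on the log2 scale (edgeR, adjusted p = 0.000158), with even values among the NT libraries. In PGSC0003DMG400010764 the values were 0.0269, 0.0287 and 0.0151 CPM at HT and 3.34, 4.49 and 6.49 CPM at NT. No counts were seen at HT for PGSC0003DMG400010762, which had 0.362, 0.488 and 0.779 CPM at NT and was at least 38.0-fold lower at HT, with 3 counts over the HT libraries as the floor. No HT library had more than 3 counts for PGSC0003DMG400010764 or for another 3 members given next. The size of their fitted changes therefore rests on single counts. PGSC0003DMG400016032 had 0.0134, 0 and 0 CPM at HT and 0.725, 1.48 and 2.90 CPM at NT, a fitted change of -7.97 ± 0.95 that was -9.61 without HT replicate 1 and -7.36 without NT replicate 3. It had 1 count at HT and 257 at NT, a ratio of HT to NT of 0.00280 with an exact 95% counting interval of 7.06e-05 to 0.0157. PGSC0003DMG400016031 had 0.0134, 0 and 0.0454 CPM at HT and 0.624, 2.34 and 3.06 CPM at NT, a change of -6.56 ± 0.95 that was -7.80 without HT replicate 3. PGSC0003DMG400010763 had 0, 0.0287 and 0 CPM at HT and 0.684, 0.390 and 1.34 CPM at NT, a fitted change of -6.12 ± 0.95 that was -8.55 without HT replicate 2, from 2 counts at HT and 121 at NT (ratio 0.0119, exact 95% counting interval 0.00142 to 0.0439). These intervals cover counting error only. The last 3 transcripts were called in each of these fits.

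Further members of the same runs behaved alike. PGSC0003DMG400016034 had 0, 0.0287 and 0.0303 CPM at HT, again from very few counts, and 0.866, 0.585 and 1.46 CPM at NT. Monothiol glutaredoxin-S2 (PGSC0003DMG400010767) had 0.0672, 0.0431 and 0.121 CPM at HT and 0.383, 2.57 and 2.80 CPM at NT. The glutaredoxin PGSC0003DMG400022674 fell less, with 2.17, 4.25 and 4.29 CPM at HT, 7.83, 18.0 and 20.8 CPM at NT and a log2 change of -2.12 ± 0.46 (edgeR, adjusted p = 0.00429). One member, PGSC0003DMG400019671, went against the rest, with 22.0, 11.4 and 12.0 CPM at HT and 3.06, 3.65 and 2.32 CPM at NT. It rose by 2.33 ± 0.37 (edgeR, adjusted p = 0.00157), and HT replicate 1 was its highest library. With this member included, the summed level of the list was 25.0, 17.2 and 17.4 CPM at HT against 42.6, 58.3 and 70.2 CPM at NT.

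Other redox transcripts moved in both directions. Among 5 listed thioredoxins and ferredoxins, small electron carriers, 2 rose and 2 fell, against 1 and 3 with DESeq2 size factors. Thioredoxin H-type 2 (PGSC0003DMG400003615) fell to 20.4, 16.8 and 20.5 CPM at HT, against 72.1, 60.1 and 57.0 CPM at NT (log2 change -1.71 ± 0.23, edgeR, adjusted p = 0.00118). Thioredoxin II (PGSC0003DMG400019506) had 5.16, 7.78 and 6.09 CPM at HT and 11, 31.0 and 27.3 CPM at NT. Ferredoxin-3 of the chloroplast (PGSC0003DMG400023985) had 3.83, 6.09 and 5.01 CPM at HT and 1.31, 1.85 and 1.14 CPM at NT. Of 11 listed peroxidases, catalases and superoxide dismutases, 4 rose, 2 fell, 1 was not called and 4 were not tested (3 and 3 with DESeq2 size factors). Ascorbate peroxidase (PGSC0003DMG401001731), which removes hydrogen peroxide with ascorbate, rose to 32.4, 39.8 and 32.3 CPM at HT, against 5.15, 6.22 and 4.29 CPM at NT. Its change was 2.74 ± 0.28 (edgeR, adjusted p = 0.000498), and the groups were far apart. Cationic peroxidase 1 (PGSC0003DMG400020799) had 0.874, 8.28 and 2.85 CPM at HT and 0.181, 0 and 0.200 CPM at NT. It was uneven among the HT libraries, and its change of 4.96 ± 1.12 (edgeR, adjusted p = 0.00499) was 3.85 without HT replicate 2. A class III peroxidase (PGSC0003DMG400026575) had 1.18, 0.976 and 0.985 CPM at HT and 6.62, 1.58 and 1.14 CPM at NT, where NT replicate 1 alone was high. Its change of -1.57 ± 0.66 (edgeR, adjusted p = 0.0462) was -0.37 without NT replicate 1 (adjusted p = 0.313) and lost its call also when any 1 HT library was left out (-1.66 to -1.52). Of 4 glutathione transferases 1 was called lower, 1 was not called and 2 were not tested, against 0 higher and 2 lower with DESeq2 size factors.

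The few listed photosynthesis transcripts went both ways. All 5 listed chlorophyll a/b binding proteins, which hold the antenna pigments, fell, by log2 changes from -1.58 to -2.11. All 3 listed small subunits of photosystem II rose, by 2.45 to 3.61, as did rubisco activase, and the antenna and photosystem list had 3 higher and 5 lower calls under every scaling tried. The listed antenna transcript with the most counts (PGSC0003DMG400008300) had 922, 968 and 862 CPM at HT, against 2594, 2738 and 2919 CPM at NT, a change of -1.58 ± 0.11 (edgeR, adjusted p = 0.000158). The name chlorophyll a-b binding protein 3C is shared by 3 transcripts with consecutive identifiers. PGSC0003DMG400013414 had 420.1, 470.1 and 438 CPM at HT and 1518, 1559 and 1795 CPM at NT. PGSC0003DMG400013415 had 245, 284 and 249 CPM at HT and 1026, 1121 and 1201 CPM at NT. PGSC0003DMG400013416 had 246, 292 and 236 CPM at HT and 773, 920.2 and 963 CPM at NT. In each, the 3 HT libraries lay close together and well below all NT libraries, but near-identical genes of this family may share reads.

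The photosystem II subunits, chosen after their values were seen, had lower counts. The 5 kDa protein PGSC0003DMG400010498 had 11.6, 13.1 and 10.3 CPM at HT and 1.21, 0.975 and 0.679 CPM at NT. A second 5 kDa protein (PGSC0003DMG400019098) had 2.80, 3.19 and 2.29 CPM at HT and 0.523, 0.566 and 0.419 CPM at NT. The 10 kDa polypeptide (PGSC0003DMG400002312), a part of the oxygen-evolving side, had 14.2, 19.8 and 10.3 CPM at HT and 0.886, 1.40 and 2.34 CPM at NT. No HT library of the 3 overlapped an NT library. Rubisco activase (PGSC0003DMG400011072) had 267, 379.9 and 239.9 CPM at HT, against 38.7, 35.6 and 44.0 CPM at NT, and rose by 2.91 ± 0.24 (edgeR, adjusted p = 0.000308). Stress enhanced protein 2 (PGSC0003DMG400016590), a thylakoid protein related to the antenna family in Arabidopsis, had 142, 112 and 107 CPM at HT and 17.5, 26.7 and 35.9 CPM at NT, a change of 2.17 ± 0.31 (edgeR, adjusted p = 0.00128).

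Most listed ribosomal protein transcripts fell, among them some of the chloroplast ribosome. Of 13 listed, 11 fell, 1 rose by 3.46 and 1 was not called, with the same counts under DESeq2 size factors. The totals alone, which shift changes upward, gave 2 higher and 11 lower. None of the 13 was in the authors' list at 8 weeks. All 4 named 50S, the large subunit of bacterial-type ribosomes such as that of the chloroplast, were lower, by -1.54 to -1.83. The 50S protein L35 (PGSC0003DMG400011211) had 221, 261 and 254 CPM at HT and 829.6, 809 and 742 CPM at NT, and fell by 1.69 ± 0.15 on the log2 scale (edgeR, adjusted p = 0.000364). L21 (PGSC0003DMG400026078) had 170.1, 219 and 212 CPM at HT and 595, 624 and 564 CPM at NT. L28 (PGSC0003DMG400017161) had 173, 186 and 192 CPM at HT and 560.5, 548 and 492 CPM at NT. In all 3 the replicates agreed to within a small part of the difference. The 29 kDa ribonucleoprotein B (PGSC0003DMG400017584), an RNA-binding protein of the chloroplast, had 249, 355 and 331 CPM at HT and 974, 1034 and 892 CPM at NT and fell by 1.63 ± 0.18 (edgeR, adjusted p = 0.000527). Summed over the list, ribosomal proteins gave 908, 1070.2 and 1072 CPM at HT against 3312, 3246 and 2844 CPM at NT. Of 4 listed translation factors 1 rose and 2 fell (0 and 2 with DESeq2 size factors), and both listed histones fell.

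Nitrogen transporters rose. All 5 listed nitrate and ammonium transporters were higher at HT, by 1.77 to 2.91. The list of ion and nitrogen transporters had 13 of 15 members higher and none lower, and 7 higher and none lower with DESeq2 size factors. It includes 4 cationic peroxidases matched by the search pattern, and without them 10 of 11 rose and 1 was not tested. Ammonium transporter 1 member 1 (PGSC0003DMG400001508), an uptake carrier of the plasma membrane, had 99, 77.7 and 82.9 CPM at HT and 22.0, 23.7 and 17.7 CPM at NT, a change of 2.03 ± 0.24 (edgeR, adjusted p = 0.000704). Ammonium transporter 1 member 2 (PGSC0003DMG400028710) had 52.2, 33.4 and 35.6 CPM at HT and 10.8, 8.25 and 7.41 CPM at NT. A nitrate transporter (PGSC0003DMG400025334) had 73.2, 62.1 and 64.2 CPM at HT and 16.5, 20.7 and 21.4 CPM at NT. The HT libraries lay above the NT libraries by a wide margin in each of these. A component of the high-affinity nitrate transport system (PGSC0003DMG400018129), chosen after its values were seen, had 18.8, 13.2 and 18.5 CPM at HT and 2.6, 2.34 and 1.78 CPM at NT, the largest change among the 5 at 2.91 ± 0.31 (edgeR, adjusted p = 0.00052). A monovalent cation:proton antiporter (PGSC0003DMG400008849), also chosen after its values were seen, had 31.7, 25.0 and 23.6 CPM at HT and 5.68, 4.31 and 4.01 CPM at NT.

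Other transporter lists were small. All 5 tested ABC transporters, pumps driven by ATP, rose, but only 1 was called higher with DESeq2 size factors. The multidrug resistance-associated protein PGSC0003DMG400009095 had 29.5, 17.4 and 22.1 CPM at HT and 11.2, 6.63 and 4.81 CPM at NT. An ABC transporter family protein (PGSC0003DMG400007141) had 17.7, 14.7 and 14.6 CPM at HT and 5.74, 2.96 and 4.07 CPM at NT. Of 3 aquaporins, water and solute channels, 2 rose and 1 fell (0 and 1 with DESeq2 size factors). The NIP aquaporin PGSC0003DMG400014123 had 16.2, 11.4 and 13.2 CPM at HT and 4.19, 3.73 and 1.98 CPM at NT. TIP1;3 (PGSC0003DMG400028182), a channel of the vacuole membrane, had 0.955, 3.59 and 0.954 CPM at HT and 2.03, 11.2 and 23.2 CPM at NT, with overlapping groups. Its change of -2.73 ± 0.90 (edgeR, adjusted p = 0.0198) was -3.66 without HT replicate 2 and lost its call without HT replicate 1, HT replicate 3 (-2.42 in each) or NT replicate 3 (-1.85, adjusted p = 0.0732). Both listed sugar transporters were called lower, and in both NT replicate 1 lay over 4-fold below the other NT libraries (1 was called with the totals alone).

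Most listed enzymes that loosen and rebuild the cell wall fell. Of 21 listed pectin, expansin and xyloglucan enzymes, 16 fell, 3 rose and 2 were not tested (17 lower and none higher with DESeq2 size factors). All 8 pectin enzymes fell, by -1.51 to -2.49, and 6 of 7 tested xyloglucan enzymes fell. Pectinesterase (PGSC0003DMG402019255), which removes methyl groups from pectin, had 86.9, 67.6 and 91.0 CPM at HT and 323, 271 and 259 CPM at NT, a change of -1.80 ± 0.20 (edgeR, adjusted p = 0.000633). A xyloglucan endo-transglycosylase (PGSC0003DMG400021877), which cuts and rejoins the xyloglucan between cellulose fibres, had 34.6, 39.6 and 38.7 CPM at HT and 46.0, 172 and 199 CPM at NT. NT replicate 1 lay just above the HT libraries here, and the change of -1.89 ± 0.49 (edgeR, adjusted p = 0.00805) was -2.30 without it. The xyloglucan endotransglucosylase-hydrolase XTH6 (PGSC0003DMG400000408) went the other way, with 90.1, 61.7 and 68.5 CPM at HT and 33.5, 5.09 and 5.37 CPM at NT. NT replicate 1 was the high NT library, and the rise of 2.32 ± 0.74 (edgeR, adjusted p = 0.0169) was 3.81 without it.

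Structural wall proteins were mixed. Of 22 listed cellulose synthases and structural proteins, 6 rose, 11 fell, 3 were not called and 2 were not tested, against 2 and 13 with DESeq2 size factors. Glycine-rich proteins fell in 7 of 8 cases, and 3 of 5 tested extensins rose with none called lower. Fasciclin-like arabinogalactan protein 1 (PGSC0003DMG400009400), a wall-bound glycoprotein, had 86.3, 118 and 109 CPM at HT and 219, 437 and 455 CPM at NT. Glycine-rich cell wall structural protein 1 (PGSC0003DMG400028955) had 23.7, 29.7 and 33.1 CPM at HT and 100.7, 90.7 and 81.6 CPM at NT. A proline-rich protein (PGSC0003DMG400033587) had 38.4, 39.1 and 43.4 CPM at HT and 112, 122 and 110.4 CPM at NT. All 3 were lower at HT in every library, by -1.83, -1.66 and -1.51 on the log2 scale. The proline-rich receptor kinase PERK7 (PGSC0003DMG400017779), of a family that senses the wall, had 12.5, 10.2 and 14.1 CPM at HT and 1.41, 0.605 and 0.659 CPM at NT, a change of 3.78 ± 0.42 (edgeR, adjusted p = 0.000628). Extensin PGSC0003DMG400000794, chosen after its values were seen, had 2.6, 1.41 and 4.18 CPM at HT and 97.0, 1.35 and 1.5 CPM at NT. NT replicate 1 alone was high, the change of -3.61 ± 1.58 was not called (edgeR, adjusted p = 0.0538), and without NT replicate 1 it was 0.94 and not called.

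Hormone transcripts moved member by member. Of 5 listed gibberellin transcripts 3 rose and 2 fell (0 and 2 with DESeq2 size factors), and among 10 auxin transcripts 3 rose and 5 fell (0 and 4). Ga20 oxidase (PGSC0003DMG400027963), which makes active gibberellin precursors, had 1.65, 2.50 and 2.70 CPM at HT and 11.9, 18.7 and 25.1 CPM at NT, and fell by 3.02 ± 0.38 (edgeR, adjusted p = 0.00101). Gibberellin 2-oxidase (PGSC0003DMG400027631), which inactivates gibberellins, had 1.39, 2.21 and 2.05 CPM at HT and 2.23, 8.19 and 7.97 CPM at NT. Its change of -1.70 ± 0.51 (edgeR, adjusted p = 0.0133) lost the call without HT replicate 1 (-1.53, adjusted p = 0.0518). The DELLA protein RGL2 (PGSC0003DMG400037971), a repressor of gibberellin responses, had 0.538, 0.660 and 0.954 CPM at HT and 0.403, 0.0975 and 0.240 CPM at NT. Its rise of 1.53 ± 0.54 (edgeR, adjusted p = 0.0248) lost the call when HT replicate 2, HT replicate 3, NT replicate 2 or NT replicate 3 was left out (1.15 to 1.59).

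All 4 tested SAUR transcripts, small auxin-induced proteins, fell by -1.68 to -2.18. The SAUR family protein PGSC0003DMG400013549 had 2.08, 2.94 and 2.09 CPM at HT and 5.60, 10.9 and 11.8 CPM at NT. GH3.3 (PGSC0003DMG400024978), which conjugates auxin to amino acids, had 1.84, 2.73 and 1.97 CPM at HT and 0.926, 0.410 and 0.459 CPM at NT and rose by 1.86 ± 0.42 (edgeR, adjusted p = 0.00504). A 9-cis-epoxycarotenoid dioxygenase (PGSC0003DMG400027633), the enzyme of the committed step of abscisic acid synthesis, had 20.6, 26.6 and 35.9 CPM at HT and 12.2, 4.58 and 6.69 CPM at NT, and rose by 1.83 ± 0.42 (edgeR, adjusted p = 0.00536). In the 4-member list of abscisic acid and dehydration, 2 rose and 1 fell (1 and 1 with DESeq2 size factors), and 1 of the 2 was stress enhanced protein 2, matched by the pattern. Of 4 jasmonate and oxylipin transcripts 3 rose and 1 fell (1 and 1). The lipoxygenase PGSC0003DMG400020999 had 1.45, 1.49 and 1.61 CPM at HT and 0.242, 0.351 and 0.359 CPM at NT, with tight replicates. A second lipoxygenase (PGSC0003DMG400010859) had 4.41, 24.0 and 13.3 CPM at HT and 1.45, 5.79 and 2.80 CPM at NT, with overlapping groups. Its change of 2.05 ± 0.70 (edgeR, adjusted p = 0.0221) was 2.71 without NT replicate 2, and it lost its call without HT replicate 2 (1.40, adjusted p = 0.095) or NT replicate 3 (1.94, adjusted p = 0.0655). Both listed ethylene transcripts rose and 2 of 3 cytokinin transcripts rose, with none called higher under DESeq2 size factors in either list.

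Among transcription factors the ERF and AP2 list was the largest, with 14 of 17 members higher and 3 lower (2 and 3 under DESeq2 size factors). The 14 were 82.4% of those tested, against 60.3% of all tested transcripts. One of the 14 was a VAP27 protein matched by the pattern. Ethylene response factor 5 (PGSC0003DMG400010753) had 40.4, 57.3 and 62.6 CPM at HT and 17.2, 20.3 and 13.5 CPM at NT. Ethylene-responsive transcription factor 3 (PGSC0003DMG400014417) had 24.0, 30.8 and 38.6 CPM at HT and 9.36, 10.4 and 6.97 CPM at NT. Both rose, by 1.65 ± 0.28 and 1.81 ± 0.30 (edgeR, adjusted p = 0.00196 and 0.00176). Ethylene response factor 4 (PGSC0003DMG400016004) had 41.5, 48.3 and 48.4 CPM at HT and 49.2, 269 and 246 CPM at NT. NT replicate 1 was at the HT level, and the change of -2.03 ± 0.56 (edgeR, adjusted p = 0.00977) was -2.48 without it. Of 8 MYB factors 6 rose (75.0% of those tested) and 2 fell (0 and 2 with DESeq2 size factors). Myb RL3 (PGSC0003DMG400028098) had 12.0, 13.8 and 12.7 CPM at HT and 2.50, 3.73 and 5.55 CPM at NT. A SANT/MYB domain protein (PGSC0003DMG400033904) had 2.35, 3.66 and 2.45 CPM at HT and 8.05, 9.87 and 9.01 CPM at NT.

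Smaller factor families had few calls. The homeobox protein PGSC0003DMG400002835 had 34.0, 36.5 and 30.9 CPM at HT and 14.7, 9.03 and 11 CPM at NT, and both tested homeobox factors were called higher (none with DESeq2 size factors). WRKY transcription factor-b (PGSC0003DMG400020206) had 0.605, 2.35 and 1.23 CPM at HT and 0, 0.0780 and 0.0799 CPM at NT, a change of 4.67 ± 0.86 that was 4.06 without HT replicate 2 (edgeR, adjusted p = 0.00241). WRKY transcription factor-30 (PGSC0003DMG400005836) had 1.29, 0.732 and 1.09 CPM at HT and 1.07, 3.98 and 4.15 CPM at NT, with NT replicate 1 among the HT libraries. Its change of -1.56 ± 0.54 (edgeR, adjusted p = 0.0228) lost the call without HT replicate 2, HT replicate 3, NT replicate 2 or NT replicate 3 (-1.60 to -1.28). Nam 1 (PGSC0003DMG402027023), of the NAC family, had 10.6, 10.2 and 13 CPM at HT and 13.6, 53.0 and 34.3 CPM at NT and fell by 1.58 ± 0.47 (edgeR, adjusted p = 0.0131). A putative bHLH transcription factor (PGSC0003DMG401020927) had 0.256, 0.187 and 0.333 CPM at HT and no counts in any NT library, at least 13-fold higher.

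Listed flowering and meristem identity transcripts fell for the most part. Of 12 listed flowering and clock transcripts 3 rose, 7 fell and 2 were not tested (2 and 7 with DESeq2 size factors), and 6 of 8 tested MADS-box factors fell. AGL8 homolog (PGSC0003DMG400004081), of the group that sets inflorescence meristem identity, had 13.1, 8.11 and 14 CPM at HT and 30.5, 38.8 and 36.0 CPM at NT. FBP29 is the name of 2 listed MADS-box factors. PGSC0003DMG400026563 had 0.511, 0.502 and 0.576 CPM at HT and 4.31, 4.90 and 2.92 CPM at NT and fell by 2.93 ± 0.33 (edgeR, adjusted p = 0.000667), and PGSC0003DMG400001378 had 2.37, 1.03 and 2.29 CPM at HT and 5.74, 5.97 and 5.87 CPM at NT. The HT libraries lay below all NT libraries in the 3 of them.

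Defence transcripts rose in several families at 3 weeks. Of 22 listed NBS-LRR and Hcr resistance proteins, intracellular and membrane receptors for pathogens, 18 rose and 1 fell, but with DESeq2 size factors 1 was called higher and 1 lower. One of the 18 was a drug-resistance transporter matched by the pattern. The list summed to 46.5, 44.6 and 44.5 CPM at HT against 14.8, 14.5 and 11.7 CPM at NT, even values within each group. A truncated NBS-LRR protein (PGSC0003DMG400005335) had 9.36, 6.72 and 8.09 CPM at HT and 2.48, 2.77 and 1.64 CPM at NT. A disease resistance protein (PGSC0003DMG400015349) had 7.89, 7.09 and 7.70 CPM at HT and 2.30, 2.26 and 1.96 CPM at NT. Hcr2-p3 (PGSC0003DMG400015353) had 6.01, 3.96 and 5.11 CPM at HT and 2.48, 1.17 and 0.839 CPM at NT. Their changes were 1.81 ± 0.31, 1.80 ± 0.26 and 1.75 ± 0.45, all below the median of 2.01 over all higher calls. Receptor-like kinases and LRR proteins had 11 higher (84.6% of those tested) and 1 lower of 16 listed (3 and 2 with DESeq2 size factors).

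PR-1 proteins, markers of pathogen responses with consecutive identifiers, all rose where tested, 3 of 4 (2 with DESeq2 size factors). PR1 protein PGSC0003DMG400005111 had 11.1, 16.8 and 19.2 CPM at HT and 1.93, 2.32 and 1.52 CPM at NT. PR1 protein PGSC0003DMG400005113 had 4.25, 6.69 and 9.20 CPM at HT and 1.49, 0.995 and 0.699 CPM at NT. Basic PR-1 protein PGSC0003DMG400005112 had 1.76, 2.24 and 2.88 CPM at HT and 0.644, 0.702 and 0.200 CPM at NT. Osmotins, chitinases and glucanases, which attack pathogen walls or membranes, had 8 higher and 3 lower of 12 listed (4 and 4 with DESeq2 size factors). The 8 were 66.7% of those tested, close to the 60.3% higher among all tested transcripts. Endochitinase 2 (PGSC0003DMG400026854) had 316, 257 and 398 CPM at HT and 103, 86.3 and 54.1 CPM at NT, and rose by 1.99 ± 0.29 (edgeR, adjusted p = 0.00131). The basic 30 kDa endochitinase (PGSC0003DMG400008796) had 50.0, 46.5 and 44.6 CPM at HT and 118, 139 and 159 CPM at NT. Osmotin (PGSC0003DMG400013227) had 9.25, 9.76 and 5.53 CPM at HT and 25.6, 79.8 and 49.7 CPM at NT. These 2 were lower at HT in every library, but the other 3 of the 4 listed osmotins rose, by 2.55 to 4.50, and 3 of the 5 listed chitinases rose. Chitin-binding lectin 1 (PGSC0003DMG400019517) had 1062, 742 and 1053 CPM at HT and 3341, 3249 and 4022 CPM at NT, and fell by 1.89 ± 0.17 (edgeR, adjusted p = 0.000407).

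Most listed proteinase inhibitors, which potato plants make against insects and store in tubers, fell. Of 12 listed inhibitors and patatins 8 fell, 2 rose, 1 was not called and 1 was not tested (9 lower and none higher with DESeq2 size factors). The 3 listed multicystatins, inhibitors of cysteine proteases, fell by -3.36 to -3.61. Multicystatin PGSC0003DMG400005950 had 2.73, 4.81 and 9.94 CPM at HT and 75.3, 50.7 and 68.0 CPM at NT. PGSC0003DMG400026899 had 2.21, 3.00 and 6.77 CPM at HT and 46.6, 33.5 and 43.0 CPM at NT. HT replicate 3 was the highest HT library in both, and the changes of -3.47 ± 0.50 and -3.36 ± 0.47 were -4.10 and -3.98 without it (edgeR, adjusted p = 0.0013 and 0.00122 with all libraries). Patatin 3 (PGSC0003DMG400010022), a storage protein of tubers, had 4.06, 5.57 and 6.09 CPM at HT and 8.60, 26.1 and 16.9 CPM at NT, a change of -1.71 ± 0.43 (edgeR, adjusted p = 0.00718). The list of senescence and cysteine proteases had 1 higher and 2 lower of 5 (0 and 3).

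Listed terpene enzymes and glycosyltransferases mostly rose, though far fewer were called higher with DESeq2 size factors. Other lists of secondary metabolism lay nearer to the 60.3% higher among all tested transcripts. All 7 tested sesquiterpene and vetispiradiene synthases, some of which make the carbon skeletons of potato phytoalexins, were higher, by 1.59 to 2.96 in the 6 with counts at NT. The terpene and sterol list had 7 higher and 1 lower (2 and 2 under DESeq2 size factors). Sesquiterpene synthase PGSC0003DMG400010585 had 9.60, 10.3 and 12.9 CPM at HT and 1.13, 1.38 and 1.70 CPM at NT. Vetispiradiene synthase 1 (PGSC0003DMG400018245) had 6.13, 9.95 and 4.97 CPM at HT and 1.83, 1.68 and 1.70 CPM at NT. Sesquiterpene synthase PGSC0003DMG400024440 had 0.323, 0.201 and 0.667 CPM at HT and no counts at NT, at least 19.97-fold higher, and the fitted log2 change of 7.58 was 6.96 without HT replicate 3. Linalool synthase (PGSC0003DMG401011252), which makes a scent monoterpene, had 3.44, 2.07 and 2.97 CPM at HT and 12.4, 6.59 and 6.09 CPM at NT and fell by 1.57 ± 0.38 (edgeR, adjusted p = 0.00647).

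Of 24 phenylpropanoid and flavonoid enzymes 17 rose (70.8% of those tested, against 60.3% of all tested transcripts) and 7 fell, and 3 and 7 did with DESeq2 size factors. All 3 chalcone synthases, at the entry to flavonoids, fell by -1.53 to -2.51, whereas 4 of 6 anthocyanin acyltransferases rose. Flavonoid 3-hydroxylase (PGSC0003DMG400001915) had 1.99, 1.33 and 2.18 CPM at HT and 5.42, 7.94 and 10.5 CPM at NT. Leucoanthocyanidin dioxygenase (PGSC0003DMG400003091), a late enzyme of anthocyanin synthesis, had 12.7, 5.51 and 9.48 CPM at HT and 2.6, 1.97 and 1.42 CPM at NT. The hydroxylase was thus lower and the dioxygenase higher, by -2.11 ± 0.36 and 2.21 ± 0.41 (edgeR, adjusted p = 0.00192 and 0.00237). A laccase (PGSC0003DMG400021966), a copper oxidase that couples lignin units, had 4.85, 12.8 and 9.60 CPM at HT and 3.16, 0.722 and 1.08 CPM at NT, and its rise of 2.46 ± 0.62 (edgeR, adjusted p = 0.00743) was 3.33 without NT replicate 1.

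Cytochrome P450 enzymes had 15 higher and 7 lower of 29 listed, and glycosyltransferases 17 higher and 2 lower of 23, against 2 and 8 for the first and 3 and 2 for the second under DESeq2 size factors. Of the tested members 65.2% of the P450 enzymes and 85.0% of the glycosyltransferases were higher, so the share of the P450 enzymes was close to the 60.3% of all tested transcripts. The P450 transcript PGSC0003DMG400003305 had 22.1, 12.4 and 17.3 CPM at HT and 3.64, 1.97 and 2.48 CPM at NT. PGSC0003DMG400026882 had 10.7, 10.9 and 13 CPM at HT and 5.03, 3.24 and 2.22 CPM at NT. Cytochrome P450 71D6 (PGSC0003DMG400009620) was lower, with 1.64, 2.25 and 1.68 CPM at HT and 8.19, 6.20 and 6.59 CPM at NT. Glycosyltransferases attach sugars to small molecules. A UDP-glucuronosyltransferase (PGSC0003DMG400012578) had 34.6, 23.3 and 29.1 CPM at HT and 13.9, 7.02 and 7.51 CPM at NT. Phenylpropanoid:glucosyltransferase 1 (PGSC0003DMG400025878) had 13.8, 12.7 and 11.5 CPM at HT and 2.44, 3.63 and 2.74 CPM at NT. Glycosyltransferase 1 (PGSC0003DMG402004500) had 17.4, 13 and 12.5 CPM at HT and 7.01, 2.73 and 2.18 CPM at NT, and its rise of 1.85 ± 0.48 was 2.54 without NT replicate 1. All 5 of the higher ones had their HT libraries above every NT library.

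Lipid-related lists were mixed. Of 13 lipid transfer proteins, which carry lipids to the cuticle, 4 rose and 7 fell (1 and 7 with DESeq2 size factors). Non-specific lipid-transfer protein 1 (PGSC0003DMG400011954) had 165, 195 and 182 CPM at HT and 24.2, 24.2 and 22.7 CPM at NT, very even in both groups, and rose by 2.93 ± 0.20 (edgeR, adjusted p = 0.000158). The lipid-transfer protein AKCS9 (PGSC0003DMG400021761) had 9.16, 9.45 and 9.53 CPM at HT and 33.3, 42.9 and 26.1 CPM at NT, a change of -1.86 ± 0.28 (edgeR, adjusted p = 0.00134). Of 12 fatty acid and cuticle enzymes 6 rose and 4 fell (2 and 5 with DESeq2 size factors, 4 and 5 with TMM). Starch and sucrose enzymes had 3 higher and 2 lower (0 and 2 under DESeq2 size factors, 3 and 0 with the totals alone). Both that fell are trehalose-6-phosphate synthases, enzymes of a sugar signal. PGSC0003DMG400028467 had 16.7, 21.2 and 16.6 CPM at HT and 9.82, 97.0 and 111 CPM at NT. PGSC0003DMG400023995 had 5.49, 6.47 and 5.51 CPM at HT and 5.38, 17.8 and 27.0 CPM at NT. NT replicate 1 lay below all HT libraries in both. The changes of -2.0 ± 0.74 and -1.52 ± 0.53 (edgeR, adjusted p = 0.0298 and 0.0242) lost their calls whenever 1 library other than NT replicate 1 was left out (-2.13 to -1.56 and -1.60 to -0.99), and were -2.52 and -1.94 without NT replicate 1.

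Transcripts of protein turnover were called higher in shares not far from the 60.3% of all tested transcripts, at 68.2% of the tested ubiquitin list and 71.4% of the tested F-box list. The list of ubiquitin, RING and proteasome proteins had 15 higher and 6 lower of 24, and none higher and 6 lower with DESeq2 size factors. F-box proteins, the substrate receptors of ubiquitin ligases, had 10 higher and 3 lower of 16 (2 and 3). RMA1H1, a membrane-anchored ubiquitin ligase known in pepper from drought responses, is the name of 2 listed transcripts with consecutive identifiers, which moved in opposite directions. PGSC0003DMG400021684 had 4.10, 14.5 and 13.2 CPM at HT and 6.82, 176 and 187 CPM at NT. PGSC0003DMG400021683 had 50.9, 39.9 and 45.7 CPM at HT and 12.5, 14.5 and 14.5 CPM at NT, and rose by 1.72 ± 0.24 (edgeR, adjusted p = 0.00121). For the first, NT replicate 1 lay among the HT libraries, and the change of -3.54 ± 1.07 (edgeR, adjusted p = 0.0142) was -4.09 without it.

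A ubiquitin carrier protein (PGSC0003DMG400019398) had 25.4, 23.4 and 25.3 CPM at HT and 34.7, 111 and 95.6 CPM at NT. F-box family protein PGSC0003DMG400023703 had 18.2, 30.0 and 22.5 CPM at HT and 29.0, 117 and 121 CPM at NT. F-box family protein PGSC0003DMG400007856 had 3.98, 5.12 and 5.03 CPM at HT and 4.95, 21.6 and 24.8 CPM at NT. These 3 again had NT replicate 1 near the HT level and the other NT libraries high. In an F-box/kelch-repeat protein (PGSC0003DMG400002562), with 2.70, 2.04 and 3.47 CPM at HT and 7.03, 12.9 and 14.4 CPM at NT, all NT libraries were above HT. Of 9 calcium sensors and transporters 3 rose and 5 fell (1 and 6 with DESeq2 size factors, 3 and 2 with the totals alone). The calcium-transporting ATPase 2 (PGSC0003DMG400013022), a pump of the plasma membrane, had 20.6, 20.5 and 21.4 CPM at HT and 22.0, 102 and 79.5 CPM at NT, with NT replicate 1 just above the HT libraries.

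Retroelements and transposases were the largest list, with 33 of 49 members higher, 4 lower and 12 not tested. The 33 were 89.2% of those tested, against 60.3% of all tested transcripts. With DESeq2 size factors 3 were higher and 5 lower. Their summed level was nearly the same in both groups, at 52.4, 47.5 and 50.9 CPM at HT and 43.9, 55.3 and 52.8 CPM at NT. The sums at NT held a transposase (PGSC0003DMG400015225) that fell, with 6.09, 6.63 and 7.33 CPM at HT and 25.1, 23.8 and 20.3 CPM at NT (log2 change -1.79 ± 0.25, edgeR, adjusted p = 0.00125). IS10 transposase PGSC0003DMG400024488 had 3.16, 1.94 and 2.30 CPM at HT and 4.63, 12.4 and 13.8 CPM at NT. A second IS10 transposase (PGSC0003DMG400026998) had 2.50, 2.04 and 1.74 CPM at HT and 1.45, 8.54 and 8.67 CPM at NT, and its change of -1.57 ± 0.61 (edgeR, adjusted p = 0.0364) lost the call whenever 1 library other than NT replicate 1 was left out (-1.72 to -1.25). A Gag-pol protein (PGSC0003DMG400046629) had 0.282, 0.187 and 0.197 CPM at HT and no counts at NT, at least 11.2-fold higher. Cyclins, kinesins and replication proteins, markers of dividing cells, had 3 higher and 2 lower of 5 (1 and 2 with DESeq2 size factors), 1 of the 3 being a reverse transcriptase matched by the pattern, with sums of 5.26, 6.17 and 6.79 CPM at HT and 4.51, 10.3 and 12.8 CPM at NT.

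**Figure D3:**
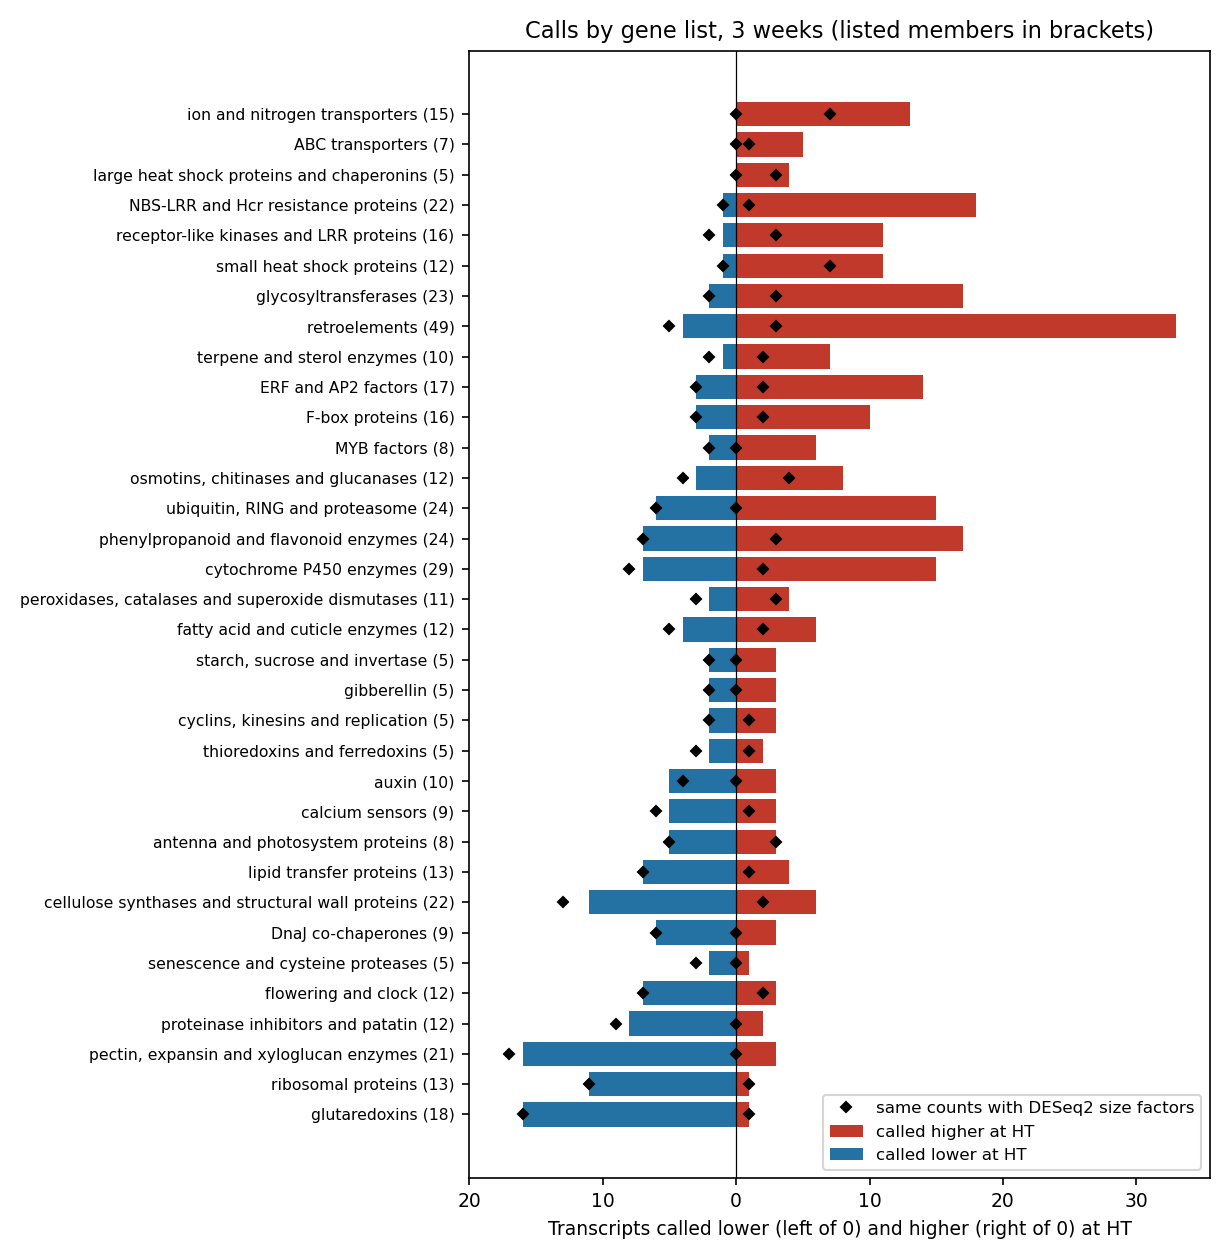
Bars give the transcripts of each gene list with at least 5 listed members that were called lower (left of 0) and higher (right of 0) at HT, and diamonds give the same counts with DESeq2 size factors. With these factors the lists of glutaredoxins, ribosomal proteins and antenna proteins kept their counts, whereas 3 in place of 33 retroelements and 1 in place of 18 resistance proteins were called higher. The factors shift all changes downward, so falls tend to keep their calls. The balance of calls turned from more higher to more lower for retroelements, ERF factors, cyclins, F-box proteins, MYB factors and ubiquitin proteins. The same held for P450 enzymes, phenylpropanoid enzymes, fatty acid enzymes, starch enzymes and gibberellin transcripts. This came mostly from rises that lost their calls, and it is not a count of changed signs.

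Of the transcripts named here, 30 rises were not called with DESeq2 size factors, where their log2 changes were 0.30 to 1.25, still above 0. Among heat response and protein turnover transcripts these were Le-HSP17.6, PGSC0003DMG400011630, heat shock factor PGSC0003DMG400017334, DnaJ PGSC0003DMG400023400 and RMA1H1 PGSC0003DMG400021683. Among regulators and hormone transcripts they were ethylene response factor 5, ethylene-responsive factor 3, Myb RL3, homeobox PGSC0003DMG400002835, RGL2, GH3.3, 9-cis-epoxycarotenoid dioxygenase and lipoxygenase PGSC0003DMG400010859. The defence and transport transcripts were basic PR-1, the 3 named resistance proteins, both named ABC transporters, the NIP aquaporin and nitrate transporter PGSC0003DMG400025334. The enzymes were XTH6, leucoanthocyanidin dioxygenase, the laccase, vetispiradiene synthase 1, P450 PGSC0003DMG400026882, UDP-glucuronosyltransferase, glycosyltransferase 1, ferredoxin-3 and helicase DB10 (PGSC0003DMG400031391). With TMM factors 5 rises were not called, those of XTH6, PGSC0003DMG400009095, Hcr2-p3, RGL2 and glycosyltransferase 1. With the totals alone 5 falls were not called, those of WRKY-30, both trehalose-6-phosphate synthases, the class III peroxidase and IS10 transposase PGSC0003DMG400026998. When adjusted over all tests of the authors, 61 of the 133 named transcripts were not called.

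Many of the falls rested on NT replicates 2 and 3. NT replicate 1 lay over 4-fold below both of them for 75 of the 546 transcripts listed as lower. For these 75 the median log2 ratio of NT replicate 1 to the HT mean was -0.09, and that of the other NT libraries to the HT mean was 2.97. NT replicate 1 lay inside or under the range of the HT libraries in 53 of them and under the HT mean in 42. Of the 75, 61 were called lower, 3 were not called and 11 were not tested, and 20 have no known function. The 61 had a median change of -2.40, and -2.89 without NT replicate 1, whereas all 476 lower calls had a median of -1.93, and -2.07 without it. Over all 546 transcripts listed as lower, NT replicate 1 lay inside or under the HT range for 81 (14.8%), against 13 for NT replicate 2 (2.38%) and 18 for NT replicate 3 (3.3%). DnaJ proteins gave 5 of the 75, the pectin, expansin and xyloglucan list 4, and ERF factors, F-box proteins, ubiquitin proteins, auxin transcripts, peroxidases, sugar transporters and glutaredoxins 2 each. Without NT replicate 1, 829 transcripts were called higher and 498 lower, 36 calls were lost, of which 10 were lower, and no call changed sign. Heat shock proteins, antenna, photosystem and ribosomal proteins had no member among the 75.

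**Figure D4:**
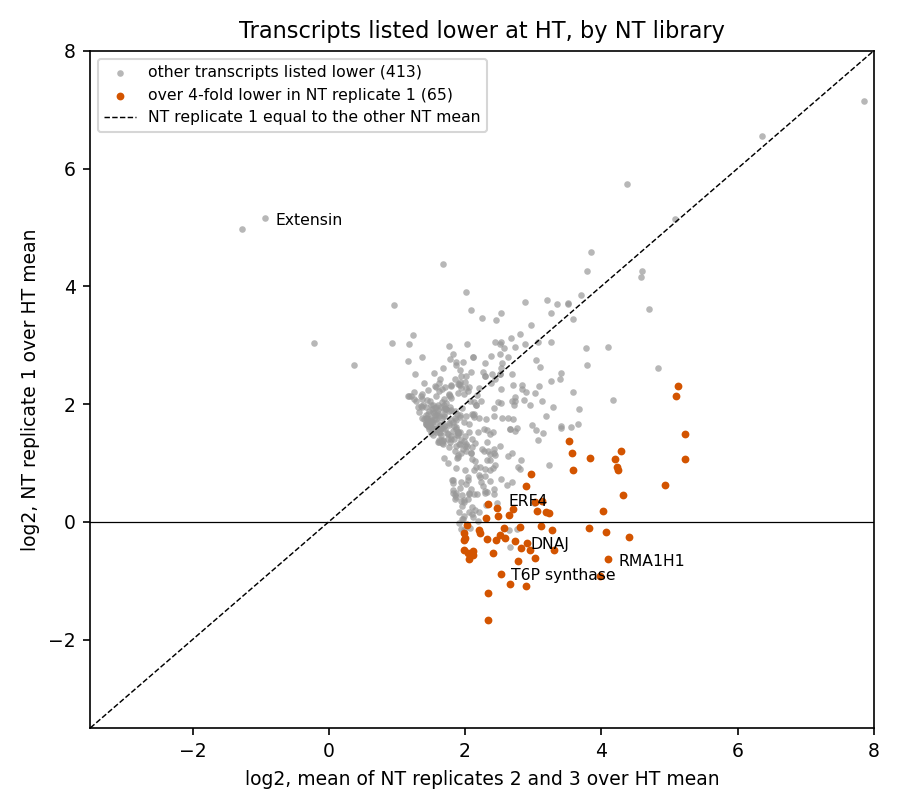
The horizontal axis gives the log2 ratio of the mean of NT replicates 2 and 3 to the HT mean and the vertical axis that of NT replicate 1 to the HT mean, for transcripts listed as lower with counts in all 6 libraries. Of the 65 orange points, those over 4-fold lower in NT replicate 1 than in both other NT libraries, most lie near 0 on the vertical axis, while the 413 grey points mostly follow the line of equal ratios.

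The same comparison at 8 weeks used other libraries on both sides, 3 at HT and 3 at NT, and these had no part in choosing the 3-week list. The authors' list at 8 weeks held 16.3% of the transcripts they tested, 9.93% higher and 6.41% lower. Of the 1447 transcripts listed at 3 weeks 580 were also in it (40.1% of the 3-week list and 10.4% of the 8-week list), and 433 of the 580 changed in the same direction (74.7%). In the fit of the 8-week list, where 97.3% of 5176 tested transcripts were called (59.2% higher and 38.0% lower), 387 of the 580 were called in the 3-week direction and 126 in the opposite one. The shares were alike for rises and falls, at 270 of 362 (74.6%) and 163 of 218 (74.8%). Among the 75 transcripts that were low in NT replicate 1, 43 were listed at 8 weeks and 38 of these fell there too, against 125 of 175 among the others listed as lower at 3 weeks. The difference of the HT effect between ages, tested as an interaction over 12 libraries, was called for 194 of 576 shared transcripts (33.7%). Of the 194, 142 had opposite signs at the 2 ages, 50 had the same sign and a larger change at 8 weeks, and 2 had a smaller one.

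Heat shock proteins kept their direction. All 11 small heat shock proteins listed at both ages and all 3 large ones changed the same way. For 4 of the 11 small ones the size of the change was called as different between ages in the interaction test. BAG 6 (PGSC0003DMG400000079) changed by 3.67 ± 0.46 at 8 weeks against 4.04 ± 0.24 at 3 weeks, a difference of -0.36 that was not called (edgeR, adjusted p = 0.73). HSP83 PGSC0003DMG401028907 again had counts at 8 weeks at HT, with 2.39, 2.46 and 5.33 CPM, and none at NT. Other lists of at least 4 shared members with the same sign in every one were retroelements (13 shared), ubiquitin proteins (8), F-box proteins (7), calcium sensors (7), DnaJ proteins (6) and flowering and clock transcripts (4). Over all 580 shared transcripts 74.7% had the same sign, and these small lists were not tested against that share. The 3 photosystem II subunits rose at both ages.

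Lists whose members reversed included the antenna, the multicystatins and the PR-1 proteins. All 4 chlorophyll a/b binding proteins in both lists were lower at HT at 3 weeks and higher at 8 weeks. Their transcript with the most counts (PGSC0003DMG400008300) had 669, 125 and 184 CPM at HT and 30.0, 30.0 and 33.4 CPM at NT at 8 weeks, and the change differed between ages by 4.97 ± 0.83 (edgeR, adjusted p = 0.000922). Multicystatin PGSC0003DMG400005950 had 181, 13.1 and 49.6 CPM at HT and 0.533, 0.700 and 0.812 CPM at NT at 8 weeks, a change of 6.89 ± 1.02, and differed from 3 weeks by 10.36 ± 1.26 (edgeR, adjusted p = 0.000261). HT replicate 1 was the highest HT library at 8 weeks for both transcripts. Only 1 of the 10 shared proteinase inhibitors and patatins kept its sign, and 6 of them were lower at 3 weeks and higher at 8 weeks. All 4 listed PR-1 proteins were higher at HT at 3 weeks and lower at 8 weeks in the authors' deposited tables. PR1 protein PGSC0003DMG400005111 had 5.82, 29.2 and 60.6 CPM at HT and 169, 184 and 311 CPM at NT at 8 weeks, and differed from 3 weeks by -5.82 ± 0.98 (edgeR, adjusted p = 0.000922). Ga20 oxidase (PGSC0003DMG400027963), lower at 3 weeks, had 2.22, 4.01 and 2.49 CPM at HT and 0.730, 0.277 and 0.686 CPM at NT at 8 weeks.

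**Figure D5:**
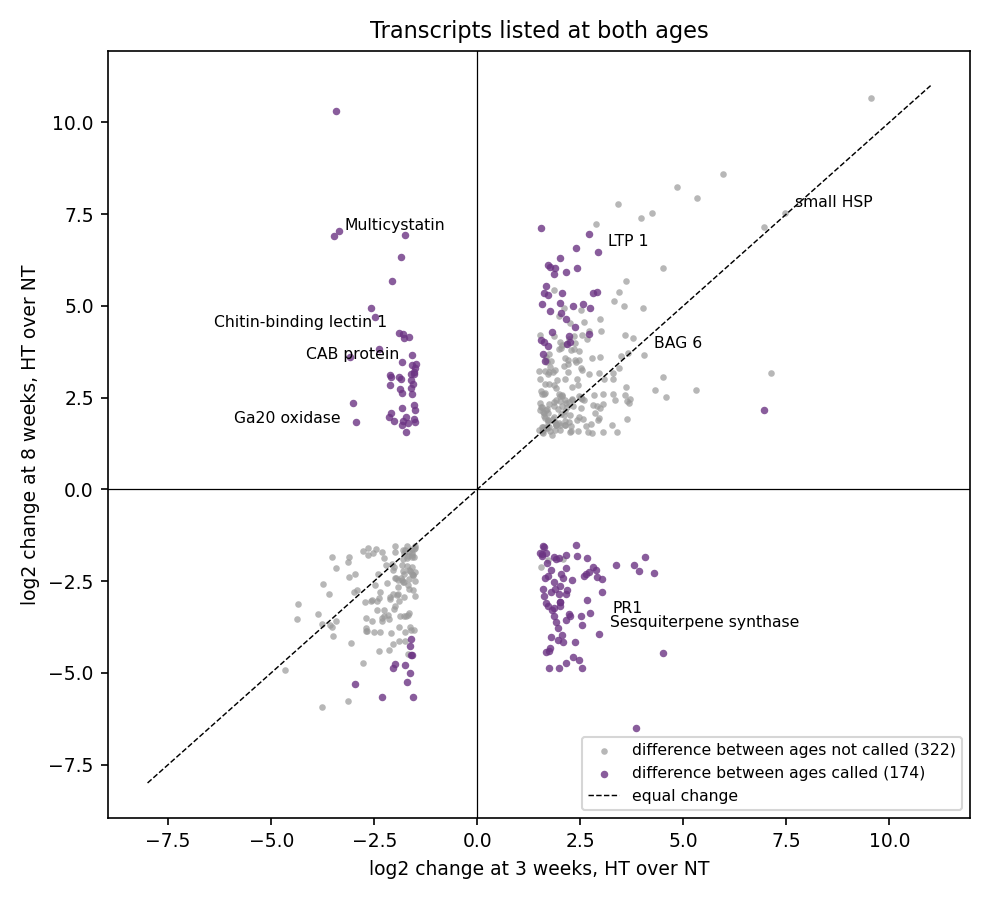
Each point is 1 of the 496 transcripts tested at both ages, with the log2 change of HT over NT at 3 weeks on the horizontal axis and at 8 weeks on the vertical axis, and purple points are the 174 whose changes differed between ages in the interaction test. Most purple points lie in the upper left and lower right, where the signs are opposite, and the small heat shock protein and BAG 6 lie near the line of equal change.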

How the data were processed

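RNA-seq of potato leaves was deposited as tables of transcripts that the authors had selected as changed, 1 sheet for each comparison, and 2 of the 3 tables were used. Per the file headers they hold raw counts per library, group mean signal values, the maximum of the group mean RPKM values, the authors' log2 ratio and signed fold change (a score with no value between -1 and 1) and the authors' p-values. Per the labels' protocols the libraries were poly(A) selected and strand-specific. Aligner and genome build: not given in the sources used here. Identifiers matched none of the genes of the reference gene table, and replicates were not said to be pooled. The deposited p-values and fold ratios were used only to describe the list.

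Column sums over a selected list are not depths. Library totals were solved from the RPKM values, counts and transcript lengths, and the constant shift between the authors' log2 ratios and those over totals was split evenly between HT and NT. Counts were fitted with edgeR 4.0.16 (filterByExpr, quasi-likelihood F test, R 4.3.3) on the 6 libraries, with Benjamini-Hochberg adjustment over all listed transcripts tested and a threshold of 0.05. The standard error is the absolute log2 change over the square root of F. The 8-week list was fitted the same way, and the difference between ages on all 12 libraries. DESeq2 1.42.0 gave alternatives, as did other scalings, filters and leaving out each library. The fit was also run on simulated counts with a fixed spread and most transcripts unchanged. That setting differs from this list, so it does not measure error rates here. Tables were made with Python 3.11.15, pandas 2.3.3, numpy 2.4.6 and SciPy 1.17.1 and figures with matplotlib 3.10.9.

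Gene lists are patterns in the product names. Named transcripts, all with a known product, were the 10 largest called changes in each direction with groups that do not overlap and 10 or more counts on average in the group with more, the 8 called with the highest mean CPM in each direction, and up to 3 of each list with at least 3 members, by mean CPM. Those chosen otherwise are named as such, and not every one is printed. Comparison, lists and rules were chosen with earlier results of these data known.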

Additional observations from a re-analysis of the deposited data

Results flagged for a closer look

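The HT effect differed between 8 and 3 weeks (edgeR interaction test over 12 libraries) for 32 of the transcripts named above, and all values here are the log2 HT effect at 8 weeks minus that at 3 weeks. The list at each age had been chosen on the same libraries, and the causes were not tested.

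Signs were opposite at the 2 ages for most of them. Lower at 3 weeks and higher at 8 weeks were the antenna transcripts PGSC0003DMG400008300 (4.97), PGSC0003DMG400013414 (4.62) and PGSC0003DMG400013415 (4.19), and the multicystatins PGSC0003DMG400005950 (10.36) and PGSC0003DMG400026899 (10.41). The same held for wall transcripts, with differences of 3.66 for pectinesterase, 4.04 for fasciclin-like arabinogalactan protein 1, 4.81 for the proline-rich protein and 5.81 for glycine-rich cell wall structural protein 1. Chitin-binding lectin 1 differed by 6.15, Ga20 oxidase by 5.39, linalool synthase by 4.43 and lipid-transfer protein AKCS9 by 4.88, also with a fall at 3 weeks and a rise at 8 weeks.

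Higher at 3 weeks and lower at 8 weeks were the PR-1 proteins PGSC0003DMG400005111 (-5.82), PGSC0003DMG400005113 (-5.67) and PGSC0003DMG400005112 (-5.00). So were GH3.3 (-5.32), lipoxygenase PGSC0003DMG400010859 (-6.02), UDP-glucuronosyltransferase PGSC0003DMG400012578 (-3.17), sesquiterpene synthase PGSC0003DMG400010585 (-6.89), the laccase (-7.11) and the high-affinity nitrate transport component (-5.31).

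Other transcripts rose at both ages. The rise was larger at 8 weeks by 2.47 for rubisco activase, 3.54 for lipid-transfer protein 1, 1.86 for Le-HSP17.6 and 2.21 for ascorbate peroxidase. It was larger by 2.67 for XTH6, 1.77 for lipoxygenase PGSC0003DMG400020999, 4.39 for P450 PGSC0003DMG400026882, 3.09 for nitrate transporter PGSC0003DMG400025334 and 3.57 for RMA1H1 PGSC0003DMG400021683. For the bHLH factor PGSC0003DMG401020927 the difference was -4.80, a fitted value that rests on NT libraries without counts at 3 weeks.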

How the results depend on the processing

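Calls within a list chosen on the same libraries show little about stability. With DESeq2 size factors estimated on the listed transcripts 662 were called, 155 of them higher, and with adjustment over all the authors' tests 283 were called, 162 higher and 121 lower. With TMM factors there were 597 higher and 498 lower calls, and with the totals alone 801 and 420. Leaving out 1 library at a time gave 1126 to 1327 calls, with 685 to 829 higher and 430 to 498 lower. At 8 weeks it gave 343 to 380 shared transcripts called in the 3-week direction, 102 to 138 called in the opposite one, and 170 to 207 called in the interaction. An adjusted p under 0.01 left 72 of the 126 called in the opposite direction at 8 weeks. Extensin PGSC0003DMG400000794 changed by 0.94 without NT replicate 1, against -3.61 with all libraries and -4.17 and -4.17, both called, without NT replicate 2 or NT replicate 3.

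For the 133 named transcripts, 1944 of 2113 recomputed values kept their direction and side of the threshold, 164 lost the call, 4 gained one and 1 turned. Of the lost calls 12 transcripts lost theirs without at least 1 library, each named above. DESeq2's test, both other filters and factors solved from the authors' fold changes lost none. Transcripts that no longer passed the filter in a setting have no value there.

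Replicate numbers are shared by HT and NT. The labels do not say that the numbers mark a shared day or batch, so the main fit used no block. Same-numbered libraries had correlations of deviations of 0.14, 0.10 and -0.05, and other pairs -0.16 to 0.13. With so few libraries these values cannot exclude a shared batch. With a replicate block, 763 transcripts were called higher and 449 lower (1212 in all), and 176 in the interaction. Among named transcripts the falls of DnaJ PGSC0003DMG400003565, WRKY-30, the class III peroxidase, trehalose-6-phosphate synthase PGSC0003DMG400028467 and IS10 transposase PGSC0003DMG400026998 were not called with the block. The lower calls were 3 in place of 5 among both calcium sensors and auxin transcripts, 1 in place of 2 among peroxidases, starch enzymes and sugar transporters, and 0 in place of 1 among WRKY factors and receptor-like kinases. Higher calls were 1 in place of 2 among ethylene transcripts and 2 in place of 1 among ribosomal proteins. Precision is limited by 3 libraries a group, and transcripts with few counts in 1 group have uncertain sizes of change.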

Other observations

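Several named transcripts outside the gene lists above had large or abundant changes, given here as values. Coatomer subunit beta-1 (PGSC0003DMG401021320), part of the coat of vesicles that leave the Golgi apparatus, had 7.03, 4.92 and 7.41 CPM in the HT libraries and no counts in any NT library, at least 325-fold higher at HT. A quinone reductase family protein (PGSC0003DMG400006245) had 0.202, 0.201 and 0.545 CPM at HT and no counts at NT, at least 15.9-fold higher, and the fitted log2 change of 7.25 was 6.59 without HT replicate 3. A UDP-glycosyltransferase (PGSC0003DMG400001439) had 0.377, 0.172 and 0.182 CPM at HT and no counts at NT, at least 12.3-fold higher. These floors take 3 counts over the NT libraries.

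Transcripts named Leafy cotyledon 1, a regulator of embryo development in Arabidopsis, were present at HT. PGSC0003DMG400013503 had 0.430, 0.933 and 0.242 CPM at HT and 0, 0.0195 and 0 CPM at NT, from 113 counts at HT and 1 count at NT, a ratio of 81.2 with an exact 95% counting interval of 14.3 to 3237. PGSC0003DMG400013504 had 0.269, 0.531 and 0.242 CPM at HT and 0, 0.0195 and 0 CPM at NT, a ratio of 52.5 with an interval of 9.13 to 2101. The fitted log2 changes of 5.95 and 5.33 were 8.06 and 7.44 without NT replicate 2, the NT library with the count, and 5.28 for the first without HT replicate 2. Both also rose at 8 weeks, by 8.59 ± 1.09 and 7.94 ± 1.10 (edgeR, adjusted p = 0.00162 and 0.00191). Neighbouring identifiers of the same name may share reads.

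Among the falls, a 14-3-3 protein (PGSC0003DMG400028377), of a family that binds phosphorylated proteins, had 0.0134, 0.158 and 0.106 CPM at HT and 3.28, 3.82 and 2.44 CPM at NT. The change was -5.09 ± 0.67, and -5.72 when HT replicate 2 was left out. A hemoglobin (PGSC0003DMG400030927), a haem protein that binds oxygen, had 0.0672, 0.0574 and 0.106 CPM at HT and 4.09, 1.58 and 1.62 CPM at NT, and its change of -4.95 ± 0.58 was -4.35 without NT replicate 1. The groups did not overlap in either transcript. Abundant rises included ATP-dependent RNA helicase DB10 (PGSC0003DMG400031391), with 641, 617 and 585 CPM at HT and 159.8, 181 and 213 CPM at NT, a rise of 1.73 ± 0.17 that was not called with DESeq2 size factors. A zinc finger family protein (PGSC0003DMG400014487) had 219, 251 and 190.3 CPM at HT and 42.6, 58.8 and 66.5 CPM at NT, a rise of 1.98 ± 0.24 (edgeR, adjusted p = 0.000745).

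Of the 1447 listed transcripts 439 had no known function, 286 of the 901 listed higher (31.7%) and 153 of the 546 listed lower (28%). No count was seen at NT for 20 of those listed higher, and none at HT for 9 of those listed lower.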
